A study of Mus musculus with 24 samples.

Results

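The clustered protocadherins of the nucleus accumbens (NAc), a part of the ventral striatum, were followed in poly(A) RNA-Seq libraries from male and female mice with and without subchronic variable stress (SCVS). They were taken as the genes of the count table whose symbols begin with Pcdha, Pcdhb or Pcdhg and that had more than 5 reads in all 3 libraries of at least 1 group. This gave 24 of the 38293 rows of the table, and 24 of the 18593 rows that passed the same filter. No member with the required symbol failed it. The 24 rows were 1 for the alpha cluster, 22 for the beta cluster and 1 for the gamma cluster.

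All mice were C57BL/6J, gonadally intact and 9 weeks old by the labels, and the 4 groups were unstressed males (NSM), stressed males (SM), unstressed females (NSF) and stressed females (SF). Stressed mice went through alternating days of foot shock, tail suspension and restraint, and NAc tissue was taken the day after the last stressor. Unstressed mice were same sex controls. Each group held 3 libraries, each made from 10 NAc punches pooled from 5 mice, and females of both groups were in estrus or proestrus. A value is therefore that of a pool, and the spread between libraries is the spread between pools of mice.

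Clustered protocadherins are neuronal cell surface proteins of the cadherin superfamily that bind the same isoform on a neighboring cell. Each neuron switches on its own combination of isoforms from arrays of promoters, and the resulting surface identity is known for self-avoidance of dendrites and axons and for the spacing of axonal arbors, including those of serotonergic axons. Alpha and gamma transcripts join 1 variable first exon, which encodes the extracellular, transmembrane and proximal intracellular parts, to constant exons shared by the whole cluster. Beta genes have no constant exons, and each encodes a whole protein.

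This gene structure set what the counts could resolve. In the annotation used here (GENCODE M1, NCBIM37), the alpha cluster is 1 gene on chromosome 18 from 37089939 to 37347311, with 10 transcripts that begin at 10 different first exons, and it carries the symbol of a single isoform, *Pcdha11*. Of its exon bases, 20337 belong to 1 transcript and 4351 to 2 or more. The gamma cluster is likewise 1 gene, from 37833989 to 38001527, with 10 transcripts and the symbol *Pcdhgc5*, and 24380 of its exon bases belong to 1 transcript and 4600 to 2 or more. RefSeq lists 14 alpha and 22 gamma symbols, of which 1 each had a row. The 2 rows are therefore called the alpha row and the gamma row here, and neither is a measurement of the isoform whose symbol it bears. The C-type isoforms *Pcdhac1*, *Pcdhac2*, *Pcdhgc3*, *Pcdhgc4* and *Pcdhgc5*, which are the isoforms known for their use in most neurons, could not be separated from the others of their cluster. *Pcdha3* has a separate entry in the annotation but no row in the count table.

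The beta cluster lies between them, and each of its 22 RefSeq symbols had a row of its own. No beta gene shares an exon with another annotated gene, and 20 of the 22 consist of a single run of exon. They are close relatives in sequence, and the share of their 50-base windows that recurs elsewhere on chromosome 18 ran from 0.0% in *Pcdhb1* to 12.0% in *Pcdhb12*, with a median of 3.9%. A read from such a window cannot be placed in 1 gene by its own sequence. The reads were paired, and the other read of a pair may place it, which was not examined. The levels of the beta genes with many such windows may therefore be less certain. *Pcdhb20* is annotated as a pseudogene. A short antisense gene, *Gm10545*, overlaps the alpha row and had 3 to 18 reads per library, against at least 6527 for the alpha row. Of the 24688 exon bases of the alpha row, 21898 are not shared with another gene. How reads in the shared bases were counted was not examined, and the reads of *Gm10545* do not show it. The gamma row shares exon bases with *Gm16882*, which was not analysed here. The library kit does not mark strand.

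The libraries held 41076780 to 60867747 counted reads. All 3 libraries of each group had the defining markers of NAc medium spiny neurons, such as *Drd1a* at 272 to 383 CPM (reads relative to library size, scaled by the trimmed mean of M-values) and *Drd2* at 130 to 160 CPM, and *Xist* and *Ddx3y* fitted the labelled sex in every library. Markers of cortical glutamatergic neurons, which the NAc should lack, differed widely between libraries. The summed level of the 7 markers was 7.13 to 22.9 CPM in NSM, 49.3 to 200 CPM in SM, 22.7 to 368 CPM in NSF and 44.8 to 116 CPM in SF. In bulk tissue, fewer cells of a type and less RNA per cell cannot be told apart.

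The 3 clusters were expressed at nearly the same level in every group, and the gamma row dominated. Together the members took 0.117% to 0.125% of the reads of a library. Of these reads, the gamma row held 67% to 69.2%, the 22 beta genes 18.4% to 20.2% and the alpha row 12.1% to 13.9%. The share of each cluster thus moved by no more than a few percentage points over the 12 libraries.

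The alpha row had 152, 153 and 150 CPM in the NSM libraries and 164, 161 and 145 CPM in the SM libraries. In females it had 162, 152 and 163 CPM without stress and 155, 149 and 154 CPM after SCVS. The groups overlapped in both sexes, and the lowest and the highest alpha level were both found in stressed males. The log2 fold change with SCVS was 0.05 (SE 0.051, adjusted p = 0.629, limma) in males and -0.06 (SE 0.051, adjusted p = 0.948) in females. The 95% intervals ran from 0.957-fold to 1.12-fold in males and from 0.888-fold to 1.04-fold in females.

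The gamma row had 815, 804 and 802 CPM in the NSM libraries and 858, 852 and 785 CPM in the SM libraries. In females it had 801, 863 and 796 CPM without stress and 859, 847 and 842 CPM after SCVS. Here too the groups of each sex overlapped. The log2 fold change was 0.04 (SE 0.048, adjusted p = 0.641, limma) in males and 0.05 (SE 0.048, adjusted p = 0.948) in females, with 95% intervals of 0.958-fold to 1.11-fold and 0.965-fold to 1.11-fold. The male value took the other sign with scaling by library size only (-0.01) or by quantiles (-0.05), so no direction is given for it.

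The beta genes summed to 231 ± 9.9 CPM in NSM, 230 ± 9.22 CPM in SM, 227 ± 12.5 CPM in NSF and 233 ± 4.63 CPM in SF (SD, n = 3 libraries). The group means lay closer together than the SD of the group with the widest spread. Per alpha read there were 4.88 to 5.7 gamma reads, and per beta read 3.32 to 3.72. The 2 lowest ratios of gamma to alpha, 4.93 and 4.88, were in NSF libraries 1 and 3, the libraries with the highest cortical marker sums of 259 and 368 CPM. In SM libraries 2 and 3, with sums of 149 and 200 CPM, the ratio was 5.29 and 5.4, and the part of cortical tissue in this ratio was not tested.

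**Figure D1:**
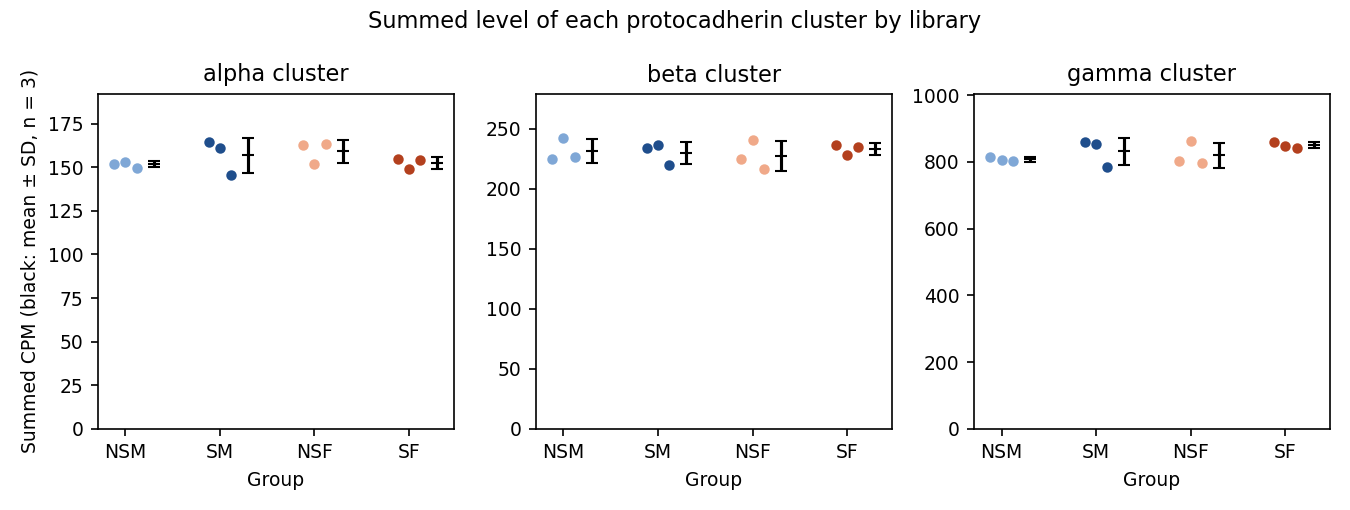
Summed TMM-scaled CPM of the alpha row, the 22 beta genes and the gamma row in each library (points, by group), with the mean ± SD of the 3 libraries of a group in black. All axes start at 0, and within each cluster the groups overlap or lie within a few percent of each other.

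Between genes, levels were compared as CPM per kb of exon that is not shared with another gene. On this scale the gamma row had the highest level at 30.3 CPM per kb, and the alpha row had 7.08. For the alpha and gamma rows the scale understates the number of transcripts, because a transcript uses only 1 of the first exons that the length counts. The gamma row was 4.27-fold above the alpha row, and the median beta gene had 2.41 CPM per kb. Each of the 2 cluster rows was annotated with 10 first exons, against 14 alpha and 22 gamma symbols in RefSeq. A row may therefore leave out isoforms of its cluster, and not to the same degree in both. *Pcdhb17* was the highest beta gene at 7.92 CPM per kb, with 7.42 in the lowest and 8.45 in the highest of the 12 libraries. *Pcdhb9* followed at 5.97 and the annotated pseudogene *Pcdhb20* at 5.58, and *Pcdhb14* was next at 4.18.

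At the other end of the order stood *Pcdhb2* at 0.997 CPM per kb, *Pcdhb4* at 0.879 and *Pcdhb1* at 0.557. From *Pcdhb17* to *Pcdhb1* the levels spanned 14.2-fold. Of the 21 pairs of neighbors in the order, 18 had ranges over the 12 libraries that overlapped. The 3 steps without overlap were those from *Pcdhb17* to *Pcdhb9*, from *Pcdhb20* to *Pcdhb14*, and from *Pcdhb21* to *Pcdhb2*, so the order sets apart a top gene, the pair below it and a lowest trio. The genes from *Pcdhb11* to *Pcdhb3*, at 1.82 to 1.77 CPM per kb, could not be ordered.

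**Figure D2:**
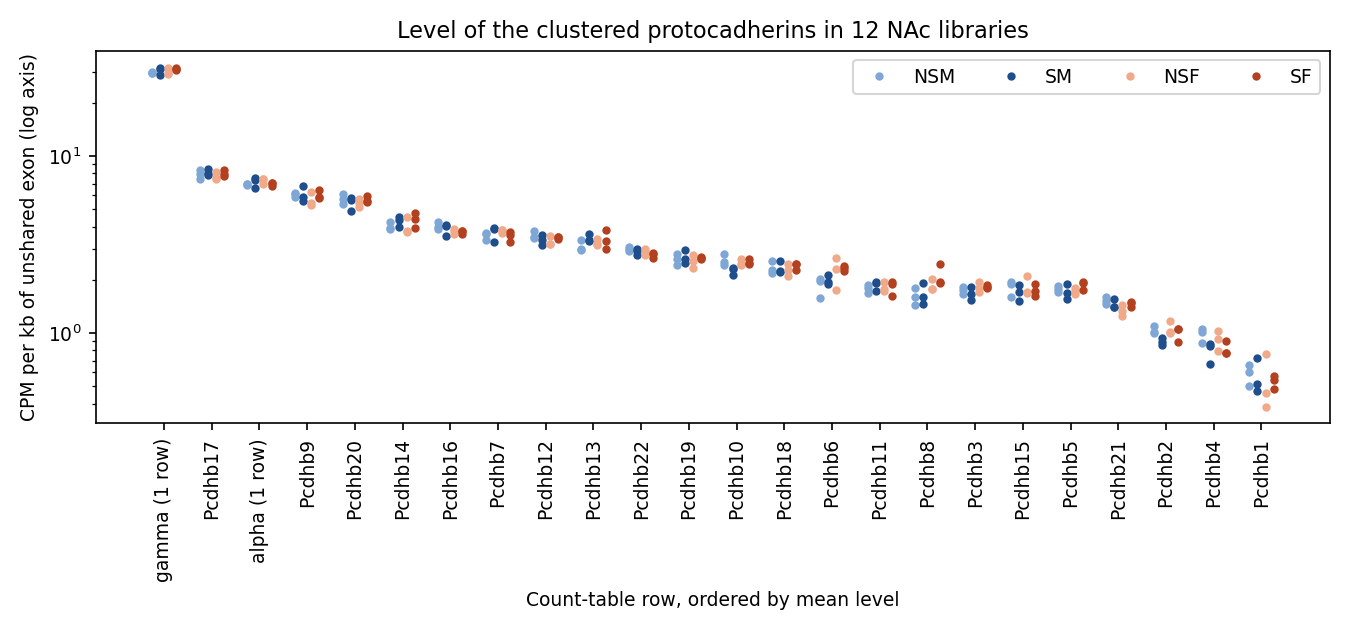
CPM per kb of unshared exon, on a log axis, for the 24 rows ordered by mean level, with a point for each of the 12 libraries colored by group. The gamma row stands above the others, *Pcdhb17* leads the beta genes, and *Pcdhb1* is lowest with the widest relative spread.

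The order was much the same in every group. *Pcdhb17*, *Pcdhb9* and *Pcdhb20* ranked 1, 2 and 3 among the beta genes in each of the 4 groups, and *Pcdhb2*, *Pcdhb4* and *Pcdhb1* ranked 20, 21 and 22. In all, 10 of the 22 genes had the same rank in the 4 groups, and the largest difference in rank was 4. A difference of 4 was found in *Pcdhb8*, which ranked 18 in both groups of males and 14 in both groups of females, and in *Pcdhb15*, which ranked 14 in NSM, 16 in SM, 15 in NSF and 18 in SF. Both belong to the genes from *Pcdhb11* to *Pcdhb3* that could not be ordered, so no meaning is given to these differences in rank. The 5 beta genes with the most reads, *Pcdhb17*, *Pcdhb16*, *Pcdhb20*, *Pcdhb19* and *Pcdhb9*, held 43.1% to 46% of all beta reads in a library.

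Levels of the beta genes also varied with their place in the cluster. All 22 genes lie on the same strand within 256 kb. The lowest 3 genes were among the 4 nearest the *Pcdhb1* end, and levels tended to be higher toward the gamma end, with a Pearson's r of 0.599 and a Spearman's rho of 0.506 between log2 level and position across the 22 genes. The relation was loose, since *Pcdhb9*, the second highest, lies near the middle, and *Pcdhb21* at 1.45 and *Pcdhb15* at 1.77 CPM per kb lie in the same stretch as *Pcdhb17*. The level also had an r of 0.357 with the share of recurring windows and of 0.187 with the log2 exon length. These are descriptions across genes of the same libraries, and neighboring genes are not independent replicates.

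**Figure D3:**
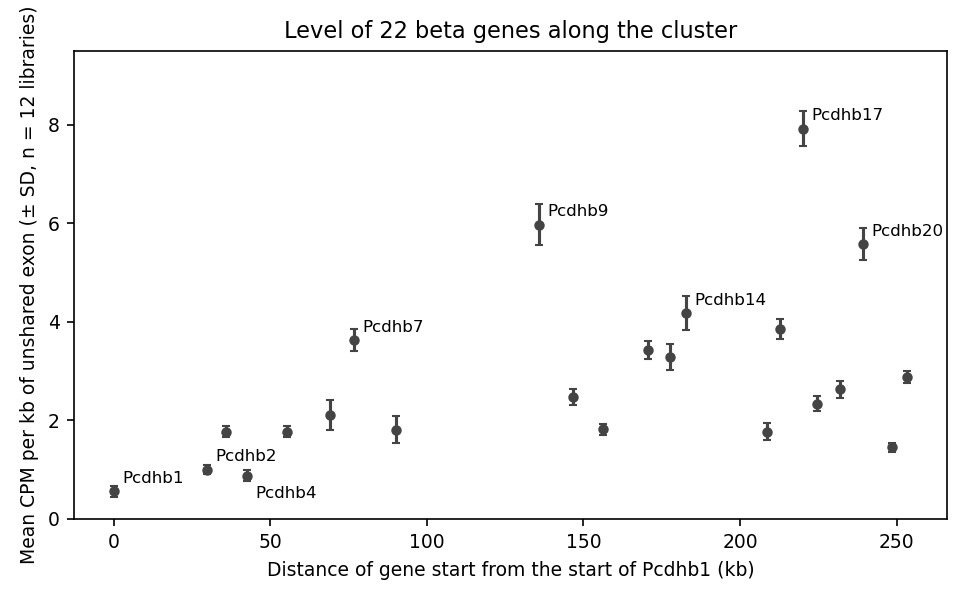
Mean level of each beta gene (CPM per kb of unshared exon, ± SD over the 12 libraries) against the distance of its start from that of *Pcdhb1* in kb. The 4 genes at the *Pcdhb1* end include the 3 lowest, and *Pcdhb17* and *Pcdhb20* lie far along the cluster, but low genes occur there too.

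The depth sufficed for most single beta genes. *Pcdhb17* had 1042 to 1608 reads per library and *Pcdhb1* 42 to 113, and 20 of the 22 genes except *Pcdhb1* and *Pcdhb2* had at least 100 reads in every library. The spread between the libraries of a group, averaged over groups, was 3.45% to 23.5% of the mean with a median of 7.04%, and the error expected from counting alone was 2.83% to 12.6%. In 18 of the 22 genes the spread exceeded the counting error. *Pcdhb1* had the highest of both, 23.5% against 12.6%, while *Pcdhb6* had a spread of 12.6% against a counting error of 5.45%.

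To ask whether stress moved any cluster or gene, the libraries were compared within each sex with voom and limma. A gene was called regulated at an unadjusted p under 0.05 with a fold change of at least 1.3 in either direction. In males 0 of the 24 members were called by limma, where 6.44% of all 18593 genes were, and 2 members passed the p threshold without the fold threshold, where 21.5% of all genes did. edgeR's quasi-likelihood test and DESeq2 also called 0. The log2 fold changes of the 24 members ran from -0.31 in *Pcdhb4* to 0.15 in *Pcdhb13*, with 11 above and 13 below 0, and their median was -0.03 against -0.01 over all genes. The median size of the change, regardless of its sign, was 0.06 in the members and 0.12 in all genes.

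For 20 of the 24 members the 95% interval in males lay wholly inside a 1.3-fold change in either direction, as it did for 53.5% of all genes. The width of an interval depends on the reads of a gene and on the spread between libraries. All members are counted at well over the minimum of the filter. The 4 members with an interval that reached past 1.3-fold were *Pcdhb1*, *Pcdhb2*, *Pcdhb4* and *Pcdhb6*. For *Pcdhb1* it ran from 0.681-fold to 1.36-fold, and smaller changes of this gene were not detectable with these libraries. Its spread within groups was 23.5%, against a counting error of 12.6%.

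*Pcdhb4*, a beta gene near the *Pcdhb1* end of the cluster, had the lowest male fold change. It had 3.28, 3.78 and 3.92 CPM in the NSM libraries and 3.22, 3.17 and 2.50 CPM in the SM libraries. The SM libraries were all below the NSM libraries, though the highest of one and the lowest of the other nearly met. The log2 fold change was -0.31 (SE 0.135, unadjusted p = 0.0399, adjusted p = 0.208, limma), under the fold threshold and not past the adjusted threshold. It passed as regulated when NSM library 1 was left out (log2 fold change -0.38), and was -0.18 without SM library 3 and -0.08 with the cortical marker level in the model. In females it had 3.45, 3.81 and 2.95 CPM without stress and 2.88, 3.36 and 2.88 CPM after SCVS, which overlapped (log2 fold change -0.16, adjusted p = 0.948, limma). The difference between the sexes in this change was 0.14 (SE 0.190, adjusted p = 0.870, limma).

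*Pcdhb10*, which lies near the middle of the cluster, had 7.92, 6.91 and 7.14 CPM in the NSM libraries and 6.09, 6.63 and 6.58 CPM in the SM libraries. The groups did not overlap, and the log2 fold change was -0.19 (SE 0.080, unadjusted p = 0.0359, adjusted p = 0.199, limma). In females the libraries had 6.87, 7.45 and 6.96 CPM without stress and 7.45, 7.10 and 7.01 CPM after SCVS, with a log2 fold change of 0.01. Of the 24 members it had the smallest p for a difference between the sexes in the response to stress, 0.20 on the log2 scale (SE 0.111, unadjusted p = 0.0958, adjusted p = 0.620, limma).

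*Pcdhb2* was the remaining member whose male groups did not overlap. It had 2.79, 3.03 and 2.80 CPM in the NSM libraries and 2.47, 2.59 and 2.37 CPM in the SM libraries (log2 fold change -0.21, SE 0.114, adjusted p = 0.305, limma). Together, 3 of 24 members had groups that did not overlap in males, against 23% of all genes, a share above that of the members. At the upper end, *Pcdhb13* had 11.4 ± 0.824 CPM in NSM and 12.7 ± 0.619 CPM in SM (SD, n = 3), a log2 fold change of 0.15 (SE 0.090, adjusted p = 0.340, limma).

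Over the 22 beta genes the median male log2 fold change was -0.06, with 9 above and 13 below 0. This median was 0.07 with the cortical marker level in the model and 0.01 without SM library 3, so its sign rests on these choices. Markers of other cells differed in the same comparison. The summed oligodendrocyte markers were at 4436 to 4976 CPM in NSM and 5369 to 5386 CPM in SM, and the summed microglia markers at 205 to 225 and 232 to 259 CPM, and their part in the small values of the members was not tested.

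**Figure D4:**
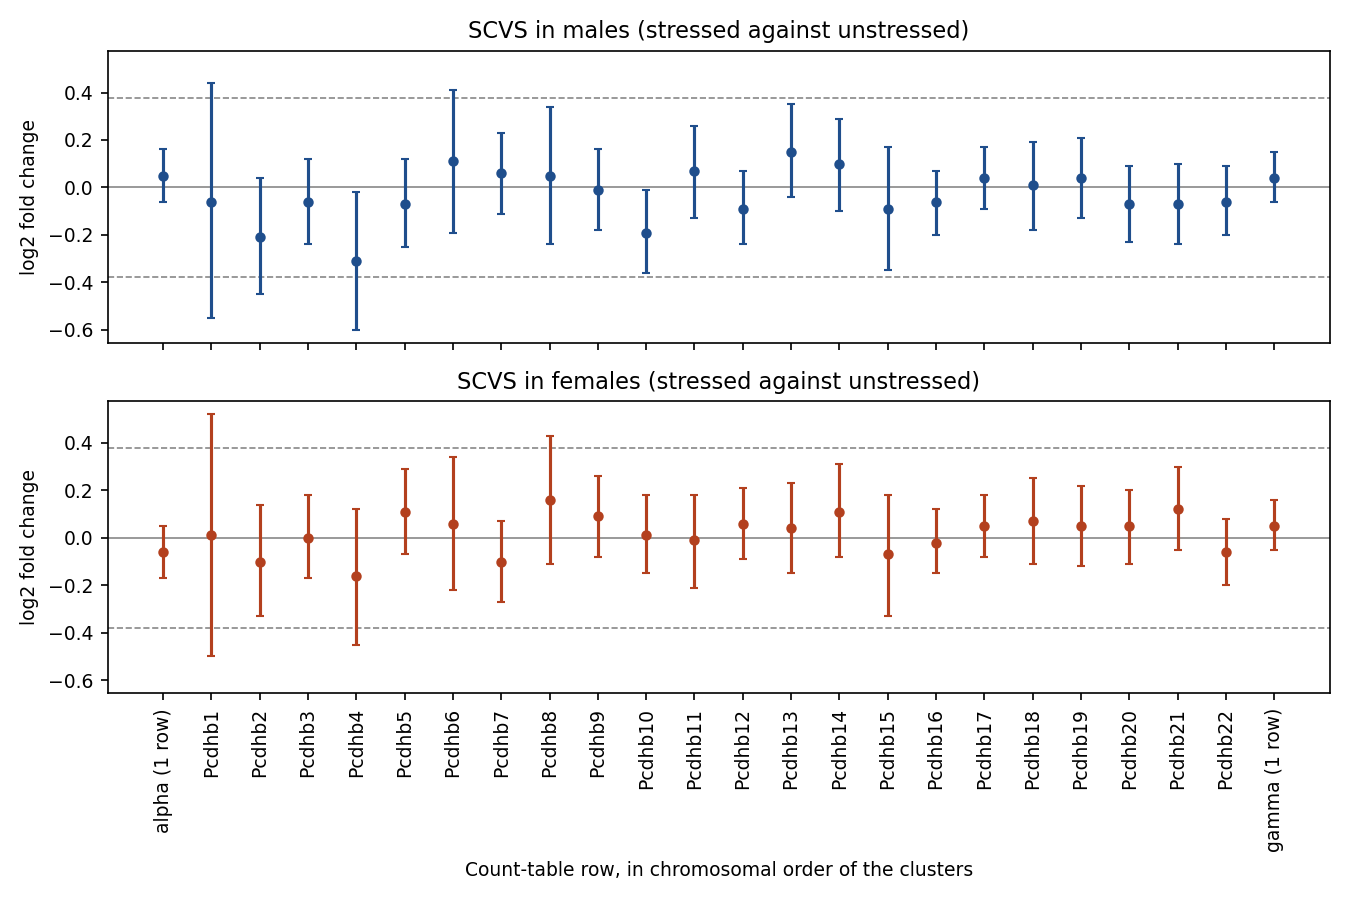
The log2 fold change with SCVS in males and in females for the 24 rows, ordered along the chromosome, with 95% intervals from limma as bars and dashed lines at a fold change of 1.3 in either direction. No estimate reaches a dashed line, and *Pcdhb4* in males comes nearest at -0.31.

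In females 0 of the 24 members were called by limma, against 1.73% of all genes, and 0 passed an unadjusted p under 0.05, against 4.23% of all genes. edgeR's quasi-likelihood test and DESeq2 called 0 as well. The fold changes ran from -0.16 in *Pcdhb4* to 0.16 in *Pcdhb8* on the log2 scale, with 16 above and 8 below 0, and their median was 0.04 against 0.00 over all genes. For 21 of the 24 members the 95% interval lay inside a 1.3-fold change in either direction, against 61% of all genes. None of the members had female groups that did not overlap, where 11.3% of all genes did. *Pcdhb17*, the highest beta gene, was at 25.2 ± 1.20 CPM without stress and 26.1 ± 1.10 CPM after SCVS (SD, n = 3), and in males at 25.9 ± 1.55 and 26.5 ± 1.01 CPM.

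The difference between the sexes in the response to stress was tested as an interaction, in which 0 of the 24 members were called by limma, against 4.42% of all genes. By an unadjusted p under 0.05 there were also 0, against 9.55% of all genes, and edgeR and DESeq2 called 0. The interaction ran from -0.15 in *Pcdhb7* to 0.20 in *Pcdhb10*. It was -0.11 (SE 0.073, adjusted p = 0.695, limma) for the alpha row and 0.01 (SE 0.068, adjusted p = 0.982) for the gamma row. The interval was wider here, and it lay inside 1.3-fold for 13 of the 24 members and 44.4% of all genes. With both sexes pooled, 0 members were called by limma, edgeR or DESeq2, against 3.38% of all genes, and 1 had an unadjusted p under 0.05, against 18.7% of all genes. This was *Pcdhb4*, with a log2 fold change of -0.24 (SE 0.095, adjusted p = 0.214, limma).

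Unstressed females and unstressed males differed in none of the clusters beyond the spread of the libraries. By limma 0 of the 24 members were called, against 5.31% of all genes, and edgeR and DESeq2 called 0. *Pcdhb21* alone passed an unadjusted p under 0.05, as 15.4% of all genes did. It had 7.09, 7.44 and 6.78 CPM in NSM and 6.22, 6.71 and 5.82 CPM in NSF, which did not overlap (log2 fold change -0.18, SE 0.079, adjusted p = 0.302, limma). The value was -0.01 with the cortical marker level in the model. *Pcdhb7*, at 12.4 ± 0.587 CPM in NSM and 13.2 ± 0.239 CPM in NSF, was the other of the 2 members whose groups did not overlap, against 19.5% of all genes.

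*Pcdhb6* had the largest difference of this comparison. It had 6.67, 6.85 and 5.4 CPM in NSM and 7.82, 9.10 and 5.95 CPM in NSF, with a log2 fold change of 0.27 (SE 0.135, adjusted p = 0.349, limma). The NSF libraries alone spanned most of the range of the gene in the study. It passed as regulated when NSF library 3 was left out (0.43) and with the cortical marker level in the model (0.57), and it was 0.11 without NSF library 2. A call of *Pcdhb1* appeared without NSF library 2, and that gene has the fewest reads of the members.

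Stressed females and stressed males were compared in the same way, and 0 of the 24 members were called by limma, edgeR or DESeq2, against 5.55% of all genes by limma. *Pcdhb8* had an unadjusted p under 0.05, as 16.4% of all genes did. It had 3.42, 3.78 and 4.50 CPM in SM and 4.53, 4.56 and 5.74 CPM in SF, so that the lowest SF library lay just above the highest SM library. The log2 fold change was 0.33 (SE 0.131, unadjusted p = 0.0239, adjusted p = 0.224, limma), with a 95% interval from 1.04-fold to 1.53-fold. It passed as regulated with sample quality weights (0.44, adjusted p = 0.0376, limma), where the adjusted p ranged up to 0.562 over all alternatives, and when SM library 3 (0.43) or SF library 1 (0.39) was left out. Without SF library 3, the highest of all libraries for this gene, it was 0.22. With quality weights, 1901 of all 18593 genes passed an adjusted p under 0.05 in this comparison, against 27 in the main fit.

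The same gene had 3.74, 4.21 and 3.37 CPM in NSM and 4.19, 4.73 and 4.16 CPM in NSF, which overlapped, with a log2 fold change of 0.22 (SE 0.128, adjusted p = 0.425, limma). *Pcdhb6* and *Pcdhb10* were the other members whose stressed groups did not overlap between the sexes, so that 3 of 24 did so, against 20.4% of all genes. For *Pcdhb6* the log2 fold change was 0.22 (SE 0.137, adjusted p = 0.450, limma). *Pcdhb6* and *Pcdhb8* are among the beta genes with more recurring windows, 8.4% and 8.0%, so part of their reads may be hard to place.

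**Figure D5:**
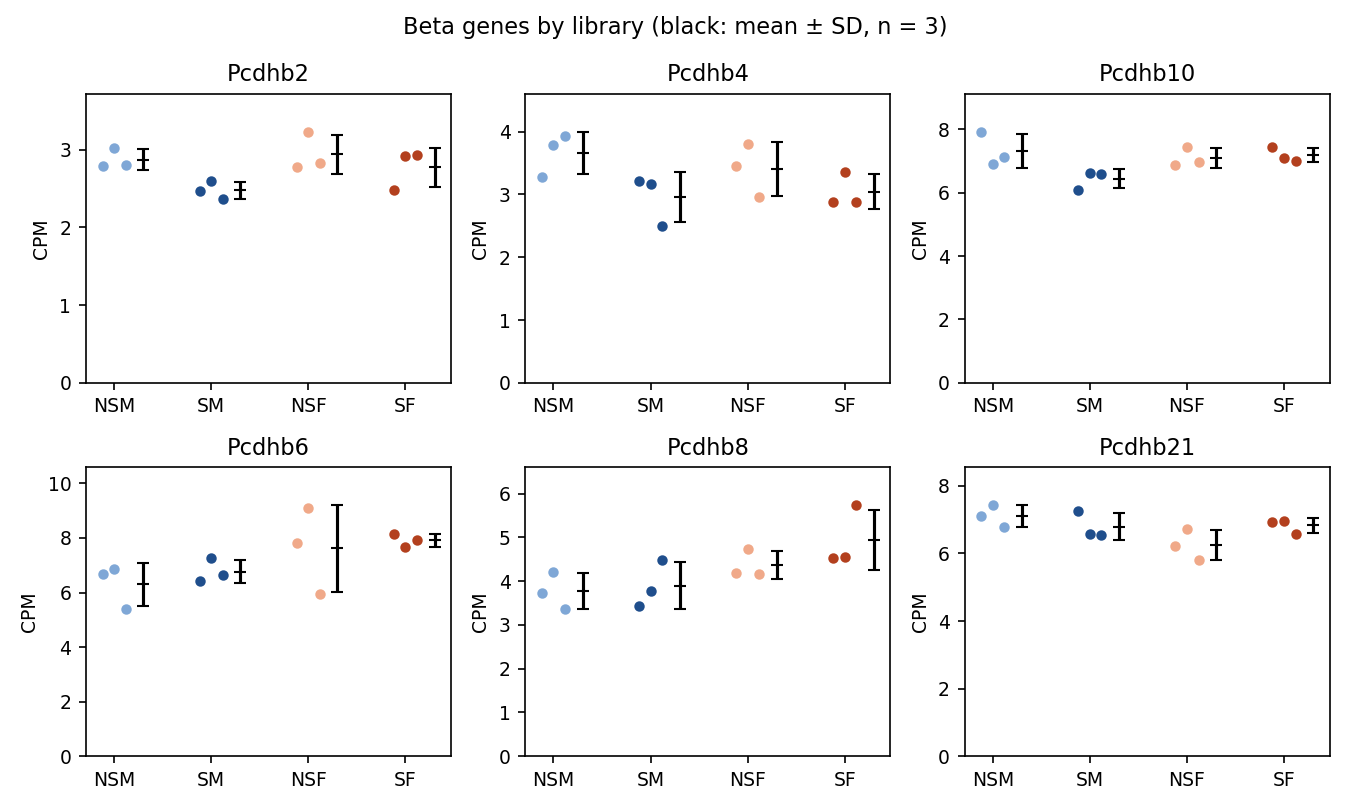
CPM of 6 beta genes in each library (points, by group) with the mean ± SD of the 3 libraries in black, and axes from 0. *Pcdhb2*, *Pcdhb4* and *Pcdhb10* do not overlap between NSM and SM, *Pcdhb6*, *Pcdhb8* and *Pcdhb10* do not overlap between SM and SF, and *Pcdhb21* does not overlap between NSM and NSF.

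The makeup of the beta cluster, given as the share of all beta reads that each gene took, did not depend on the scaling of the libraries. *Pcdhb17* took 11.2 ± 0.346% of the beta reads in NSM, 11.5 ± 0.273% in SM, 11.1 ± 0.118% in NSF and 11.2 ± 0.367% in SF (SD, n = 3 libraries). *Pcdhb4* took 1.58 ± 0.137% in NSM and 1.29 ± 0.127% in SM, and 1.5 ± 0.115% in NSF and 1.31 ± 0.147% in SF. In percentage points, which favor genes with a high share, the largest difference with SCVS in either sex was 0.57, in *Pcdhb13* of males, where the share was 4.95 ± 0.153% without and 5.52 ± 0.242% with stress.

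Genes known to act on the choice of protocadherin promoters were counted from a fixed list of 22, of which 22 were tested. In males 0 were called by limma in either direction, against 6.44% of all genes, and 5 had an unadjusted p under 0.05, a share near the 21.5% of all genes. In females 0 were called, against 1.73% of all genes, and 0 passed that p, against 4.23%. *Ctcf*, the insulator protein that loops an enhancer to the chosen promoter, had a log2 fold change of 0.08 (adjusted p = 0.362, limma) in males and 0.04 in females. *Rad21*, a subunit of the cohesin ring, had 0.08 (adjusted p = 0.397, limma) and 0.03. *Smchd1*, a chromatin protein that silences clustered protocadherins, had -0.03 (adjusted p = 0.757, limma) and 0.04. All 5 with an unadjusted p under 0.05 in males were lower after SCVS, by less than 1.3-fold. Of these, *Dnmt1*, the maintenance methyltransferase, had a log2 fold change of -0.14 (adjusted p = 0.0739, limma), and *Setdb1*, a histone methyltransferase, had -0.19 (adjusted p = 0.0885, limma). *Nipbl* and *Mau2*, which load cohesin, had -0.20 (adjusted p = 0.0859, limma) and -0.11 (adjusted p = 0.204). The methyltransferase gene *Dnmt3a* had -0.13 (unadjusted p = 0.0250, adjusted p = 0.170, limma) in males and -0.05 in females. *Dnmt3b*, which methylates protocadherin promoters early in development, was near its detection limit at 0.297 to 0.724 CPM, with log2 fold changes of -0.39 (SE 0.305) and 0.44 (SE 0.296). With the cortical marker level in the model, *Dnmt1* (-0.13) and *Setdb1* (-0.18) still passed the unadjusted p threshold in males. *Nipbl* (-0.08), *Mau2* (-0.11) and *Dnmt3a* (-0.09) no longer passed it, and *Ctcf* (0.17) did. *Dnmt3b* then met the rule for a call in both sexes, at -0.95 in males and 0.63 in females. With this covariate 1314 of all 18593 genes were called in males and 245 in females. The counts of 0 called above are those of the main fit.

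Of 25 tested partners and downstream genes, such as the kinases, WAVE complex and gamma-secretase subunits, 1 was called lower in males and 0 higher, against 6.44% of all genes called in either direction. This was *Ret*, a receptor tyrosine kinase, with a log2 fold change of -0.63 (SE 0.273, adjusted p = 0.206, limma). The call was lost with the cortical marker level in the model (-0.74, unadjusted p = 0.0605, limma). *Celsr3* then met the rule for a call (-0.46, unadjusted p = 0.0398, limma), where it had -0.29 in the main fit. With that covariate 1314 of all 18593 genes were called in males. In the main fit 5 of the 25 had an unadjusted p under 0.05 in males, against 21.5% of all genes. Apart from *Ret*, these were higher after SCVS, by less than 1.3-fold. *Prkca* had a log2 fold change of 0.24 (adjusted p = 0.0297, limma) and *Nckap1* of 0.23 (adjusted p = 0.0791). *Nlgn1* had 0.22 (adjusted p = 0.156, limma) and *Cyfip2* had 0.17 (adjusted p = 0.147). In females 0 of the 25 were called by limma, against 1.73% of all genes, and 1 had an unadjusted p under 0.05, against 4.23%. The alpha row and the gamma row were called in neither sex.

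The non-clustered protocadherins, related genes that lie elsewhere in the genome or singly, gave calls in the same libraries. Of 12 tested, 3 fell and 0 rose in males, where 6.44% of all genes were called, and 1 fell and 0 rose in females, where 1.73% were. *Pcdh8*, an activity-regulated protocadherin of synapses, had 23.5, 27.3 and 34.2 CPM in NSM and 17.2, 13.7 and 16.8 CPM in SM, which did not overlap. It fell by 0.82 on the log2 scale in males (SE 0.177, adjusted p = 0.0269, limma), and its change in females was -0.11. *Pcdh15*, known for the tip links of hair cells, fell by 0.54 in males (SE 0.101, adjusted p = 0.0170, limma). *Pcdh12*, an endothelial protocadherin, fell by 0.71 in males (adjusted p = 0.170, limma) and by 0.91 in females (adjusted p = 0.948) at 0.109 to 0.508 CPM. With the cortical marker level in the model its male call was lost (-0.71, unadjusted p = 0.110, limma), and the other 3 of these calls passed. Of all 18593 genes, 1314 were then called in males and 245 in females. Whether the clustered and the non-clustered genes differed in their response was not tested.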

How the data were processed

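Libraries were made from RNA longer than small RNA with the TruSeq RNA kit v2. The submitters' processing notes name TopHat2, HTSeq and NCBIM37/mm9. The deposited table holds raw read counts per Ensembl gene, as made by the authors. Gene symbols came from a table of gene names (17795 of the 18593 tested IDs matched), and gene structure from GENCODE M1, which may differ from the annotation the authors counted with. The rows of the count table do not match it fully, as *Pcdha3* has none. Transcript numbers, exon lengths and levels per kb rest on GENCODE M1. Small RNA libraries were not used. Of the 66 pairs of libraries, 0 held identical counts.

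A gene was kept if it had over 5 reads in 80% of a group's libraries, here all 3. The filter, voom and limma (3.58.1, R 4.3.3) follow the study's methods, but the number of genes left differs from that in the paper. TMM scaling (edgeR 4.0.16) was chosen here, with 1 mean per group over all 12 libraries. Adjusted p is Benjamini-Hochberg over 18593 genes for each of 6 comparisons. CPM values are TMM-scaled. The same steps were tested on simulated data. Alternatives included edgeR's quasi-likelihood test, DESeq2 1.42.0, other scalings and filters, a cortical marker covariate, quality weights and leaving out each library. Figures used Python 3.11.15 and matplotlib 3.10.9.

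Named were the C-type genes (void here, as they have no row of their own), members called, the 3 highest per cluster by level per kb, the highest and lowest fold change per cluster and sex, and, of the lists, called genes and *Ctcf*, *Smchd1*, *Rad21*, *Dnmt3a* and *Dnmt3b*. *Pcdhb2*, *Pcdhb6*, *Pcdhb7*, *Pcdhb10*, *Pcdhb15*, *Pcdhb21*, *Dnmt1*, *Setdb1*, *Nipbl*, *Mau2*, *Prkca*, *Nckap1*, *Nlgn1*, *Cyfip2* and other genes at an end of a range were named after their values were seen. *Celsr3* was also named after its value was seen. The members and lists were chosen with earlier results of these data known. Same-numbered libraries come from different mice, so the number was a blocking factor only in an alternative. The correlation of their deviations from the group means was 0.0427, 0.0524 and 0.503 in males and 0.164, 0.101 and 0.224 in females. No sequence is printed.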

Additional observations from a re-analysis of the deposited data

How the results depend on the processing

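Over all alternatives the number of clustered protocadherins called in females and for the sex-by-stress difference stayed at 0. Without a minimum fold change the count was 2 in males, 1 for unstressed females against unstressed males, 1 for stressed females against stressed males and 1 over both sexes. Of all genes, 21.5%, 15.4%, 16.4% and 18.7% passed in these comparisons. It was 1 for the unstressed sexes with the cortical marker level in the model (*Pcdhb6*), where 465 of all 18593 genes were called. It was 1 for the stressed sexes with sample quality weights (*Pcdhb8*), where 1673 of all 18593 genes were called, against 1031 in the main fit. With one library left out, the count ranged from 0 to 1 in males (1 without NSM library 1), from 0 to 1 between the unstressed sexes (1 without NSF library 2 or 3) and from 0 to 1 between the stressed sexes (1 without SM library 3 or SF library 1). Of all genes, 1552 of 18706 were called in males without NSM library 1. Between the unstressed sexes they were 1195 of 18653 and 705 of 18722, and between the stressed sexes 1301 of 18631 and 1473 of 18694. With the replicate block the count was 0 in all 6 comparisons, as without it. Of all 18593 genes, 998 then passed an adjusted p under 0.05 in males, against 618 in the main fit, and 0 in females in both fits. Between the unstressed sexes 562 passed, against 53, and between the stressed sexes 837, against 27.

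With the cortical marker level in the model, the median log2 fold change of the beta genes was 0.074 in males, -0.07 for the sex-by-stress difference and 0.12 between the unstressed sexes, and that of the gamma row was 0.127, -0.113 and 0.12. The gamma row was at -0.008 in males with scaling by library size only, and under quantile normalization at -0.05 in males, 0.061 for the sex-by-stress difference and -0.036 between the unstressed sexes. With one library left out, the male value ranged from 0.013 to 0.106 for the alpha row and from -0.055 to 0.009 for the beta genes, and that for the sex-by-stress difference of the beta genes from 0.009 to 0.127. The NSM mean with scaling by library size only was 155 CPM for the alpha row and 822 CPM for the gamma row. Among named members the male log2 fold change took another sign with scaling by library size only in the alpha row (0), *Pcdhb17* (-0.01), the gamma row (-0.01) and *Pcdhb8* (0). *Pcdhb9* did so with DESeq2 (0.01), quantile normalization (0.01), the cortical marker level (0.04) and quality weights (0.03), *Pcdhb20* with the cortical marker level (0.03), *Pcdhb8* with quality weights (-0.1) and the gamma row with quantile normalization (-0.05). With one library left out the male values ranged from 0 to 0.09 for *Pcdhb17*, from -0.08 to 0.05 for *Pcdhb9*, from -0.12 to 0.01 for *Pcdhb20* and from -0.05 to 0.14 for *Pcdhb8*, and the female values from -0.06 to 0.14 for *Pcdhb13*. All these changes of sign are in values near 0 that passed no threshold, and the cause was not tested. *Pcdhb1*, with 42 to 113 reads per library and a spread of 23.5%, had the widest intervals, alpha and gamma isoforms share a row each, and a library is a pool of 5 mice.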
